A study of Mus musculus with 7 samples.

Results

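Transcripts of 40 genes that act in mitosis or at the centrosome were followed in the livers of ApoE-/- mice given the HIF-1α inhibitor PX-478 or saline. The genes were taken by symbol from a list of mitotic kinases and cyclins, spindle checkpoint, kinetochore, spindle, cytokinesis and centrosome genes with 3 general proliferation genes. Of the 40, 39 were in the deposited table of 14889 genes, and Hmmr had no row there. The count filter of the test kept 35 of them among 13693 genes tested. All 7 mice were ApoE-/- on the C57BL/6 strain, which by its name has no working Apoe gene, were 4 months old by the labels and had been kept on a Western diet for 3 months. The 4 controls received saline and the other 3 mice PX-478 at 40 mg/kg, both by intraperitoneal injection on a bi-weekly schedule. As a molecule, PX-478 is melphalan N-oxide, derived from an alkylating drug. Liver RNA of each mouse gave 1 library, so a difference compares whole livers, in which fewer cells of a type and less RNA per cell cannot be told apart.

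A cell enters mitosis when cyclin B activates the kinase CDK1, which with the Aurora and Polo-like kinases condenses chromosomes and builds the spindle. The kinetochore ties chromosomes to spindle microtubules, the checkpoint holds the anaphase promoting complex until all are attached, and cytokinesis then divides the cell. Centrosomes organise the spindle poles, and their centrioles are copied once in a cycle by the kinase PLK4, which CEP152 and CEP192 recruit. Most adult hepatocytes are quiescent, and many are polyploid because they completed mitosis or S phase without dividing.

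The libraries held 10285776 to 17257304 reads, and hepatocyte markers were abundant in all of them, with a summed level of 32047 to 51589 CPM (a gene's reads relative to its library's total, with totals scaled by TMM, a trimmed mean). Apoe reads were present in every library, at 129.6 to 284 CPM with saline and 143.6 to 351 CPM after PX-478, and the counts do not tell which part of the gene they came from, so they do not check the genotype. Saline replicate 3 stood apart for the mitotic genes. It held no read of 10 of the 39 genes, against 0 to 2 in each other library. It was the lone lowest library for 51.4% of the 35 tested members and for 22.7% of all genes tested. PX-478 replicate 2 was the highest library for 40% of the members and 13.8% of all genes, and it was also the shallowest. Mitochondrial genes took 27.1% to 31.9% of the reads in saline and 22.4% to 36.7% in PX-478. Some values below are therefore also given without these libraries. The counts by role, by list of other genes and by cell type were not repeated without them.

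The mitotic transcripts were scarce in all livers and most had higher values after PX-478, but none passed the test across all genes. In edgeR's quasi-likelihood test 28 of the 35 tested members had a log2 fold change above 0 and 7 below, where 49.7% of all genes were above 0. The median log2 fold change was 0.65 for the members and -0.0035 for all genes tested. At an adjusted p under 0.05, 0 of the 35 passed, beside 0.00730% of all genes in either direction. At an unadjusted p under 0.05, 5 members were higher and 0 lower, which is 14.3% higher against 3.48% of all genes. These were Cep152, Mki67, Cdk1, Cep135 and Top2a. With DESeq2, 1 member passed at an adjusted p under 0.05, namely Cep152, against 0.336% of all genes higher. In 7 of the 35, or 20%, every PX-478 library lay above every saline library, against 4.30% of all genes, and in 0 every one lay below. They were the 5 named above with Bub1b and Incenp. The members were chosen with earlier results of these data known, so their shares beside all genes are a description and not a test.

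The counts moved with single libraries. The 5 members with an unadjusted p under 0.05 became 3 without saline replicate 1, beside 3.30% of all genes higher. They became 2 without PX-478 replicate 1 (1.99% of all genes) and 3 without PX-478 replicate 2 (4.25%). The 7 members without overlap became 14 without PX-478 replicate 3. Smaller groups overlap less easily, and the share of all genes without overlap was not counted for that setting. Without saline replicate 3 the median log2 fold change was 0.52, and with saline replicate 3 and PX-478 replicate 2 both left out it was 0.36, with 26 of 36 members above 0. When only library size was used for scaling, the median of all genes shifted to 0.15 and 32 of 35 members were above 0. With 4 and 3 mice, the standard errors of the members ran from 0.22 to 1.15 on the log2 scale with a median of 0.64, against 0.29 for all genes. The plot of levels by library shows how few reads stand behind most members.

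**Figure D1:**
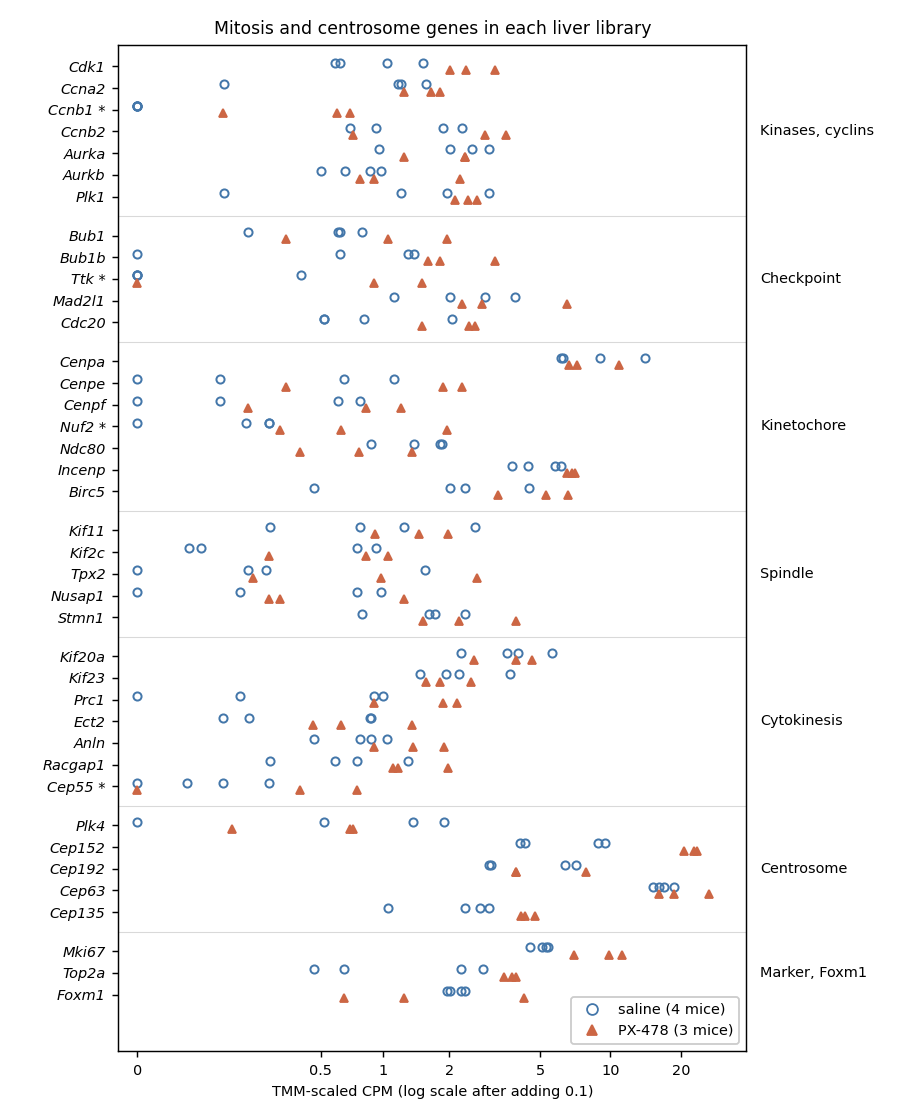
Level of each of the 39 members in every library, as TMM-scaled CPM on a log scale after adding 0.1, with open circles for the 4 saline and triangles for the 3 PX-478 libraries. Members marked with an asterisk were below the count filter and were not tested, and the triangles of Cep152 all lie to the right of its circles, at 20.6 to 23.4 CPM against 4.098 to 9.46 CPM.

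Mitotic promoters are known for a sequence element called the cell cycle genes homology region, CHR, which the MuvB complex binds, and for CCAAT boxes, which bind NF-Y. Promoter sequences from RefSeq (build GRCm38.p6), from 250 bases before to 50 after the first listed start, were found for 32 of the 40 genes. The CHR letters TTTGAA or TTCGAA were searched on both strands and occurred in 23 of the 32 windows, or 71.9%, and in 19.4% of all 27025 promoters. The letters CCAAT occurred on either strand in 22 of the 32, or 68.75%, and in 37.9% of all. Both occurred in 19, or 59.4%, against 7.70% of all. The letters TTCCCGC, a form of the E2F site, occurred in 2 of the 32, Cep152 and Plk4, and in 4.66% of all promoters. A match is a description of the sequence. The 250 bases before the start follow for 6 members, the one with the smallest p in each role but the spindle, with capitals for every match on either strand. No match overlaps another in them. They show the spacing of the elements in genes of different roles, and Birc5 is a member with no match in the window searched. For Birc5 and Mki67 the 50 bases after that start were not found in a GENCODE vM21 transcript of the gene. Their starts, and so the positions, are less certain.
Cdk1 (chr10:69352913-69353162, minus strand): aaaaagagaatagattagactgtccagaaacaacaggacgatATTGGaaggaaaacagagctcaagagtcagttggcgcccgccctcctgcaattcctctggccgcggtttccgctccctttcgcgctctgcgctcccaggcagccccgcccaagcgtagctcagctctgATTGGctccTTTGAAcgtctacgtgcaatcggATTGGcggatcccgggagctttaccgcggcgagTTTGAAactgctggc
Cdc20 (chr4:118437344-118437593, minus strand): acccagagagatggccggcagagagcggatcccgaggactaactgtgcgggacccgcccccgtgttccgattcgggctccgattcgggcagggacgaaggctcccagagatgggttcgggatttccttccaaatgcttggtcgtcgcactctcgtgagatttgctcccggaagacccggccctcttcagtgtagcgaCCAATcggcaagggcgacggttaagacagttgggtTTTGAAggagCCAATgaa
Prc1 (chr7:80294201-80294450, plus strand): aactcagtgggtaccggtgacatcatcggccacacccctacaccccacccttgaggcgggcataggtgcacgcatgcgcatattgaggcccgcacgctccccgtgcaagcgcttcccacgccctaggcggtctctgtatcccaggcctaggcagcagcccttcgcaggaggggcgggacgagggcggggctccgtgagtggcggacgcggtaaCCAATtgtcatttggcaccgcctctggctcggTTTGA
Mki67 (chr7:135716380-135716629, minus strand): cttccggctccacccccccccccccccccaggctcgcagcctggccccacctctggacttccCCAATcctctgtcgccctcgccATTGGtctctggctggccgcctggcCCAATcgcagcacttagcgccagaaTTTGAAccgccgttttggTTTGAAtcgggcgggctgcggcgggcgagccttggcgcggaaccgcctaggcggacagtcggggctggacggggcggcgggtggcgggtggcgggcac
Cep152 (chr2:125625114-125625363, minus strand): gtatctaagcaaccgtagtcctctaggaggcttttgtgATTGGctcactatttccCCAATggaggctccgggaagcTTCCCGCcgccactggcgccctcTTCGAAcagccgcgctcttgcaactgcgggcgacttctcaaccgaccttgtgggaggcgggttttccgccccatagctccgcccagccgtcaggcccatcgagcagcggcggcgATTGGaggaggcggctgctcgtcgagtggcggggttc
Birc5 (chr11:117848987-117849236, plus strand): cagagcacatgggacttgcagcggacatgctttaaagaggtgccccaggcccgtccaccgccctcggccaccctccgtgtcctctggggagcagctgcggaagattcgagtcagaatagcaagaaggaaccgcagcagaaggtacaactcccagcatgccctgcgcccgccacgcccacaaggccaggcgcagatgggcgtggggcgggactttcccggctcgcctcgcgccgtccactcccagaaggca
In Cdk1 the CHR letters began 71 and 15 bases before the start, each after a CCAAT box. In Cdc20 they began 18 bases before it, between CCAAT boxes at 53 and 8 bases. In Prc1 they run across the start, so that only their first bases are printed. Mki67 and Cep152 each held 3 CCAAT matches. The Cep152 CHR form, TTCGAA, lay 151 bases before the start, farther upstream than in Cdk1 or Cdc20.

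Among mitotic kinases and cyclins, 5 of 6 tested genes had a log2 fold change above 0 and 1 had an unadjusted p under 0.05. Cdk1, the kinase that drives entry into mitosis, lies on chromosome 10 from 69335146 to 69352912. Its level was 0.586, 1.04, 1.52 and 0.626 CPM in saline replicates 1 to 4 and 2.37, 3.18 and 2.02 CPM in PX-478 replicates 1 to 3. All PX-478 libraries lay above all saline libraries, on 31 to 42 reads against 9 to 23. Fitted, it had a log2 fold change of 1.41 with a 95% interval of 0.19 to 2.63 and an SE of 0.56 (edgeR adjusted p = 0.654). Ccnb1 encodes cyclin B1, the activating partner of that kinase. It had 0 reads in all 4 saline libraries and 10, 8 and 2 in the PX-478 libraries. Where 0 are seen, 3 reads are about the upper 95% limit of the expected count. Set against 3 reads over the whole saline group, the pooled PX-478 level of Ccnb1 was 9.01-fold higher. That ratio allows for counting error in saline only, not for that of the 20 PX-478 reads or for differences between mice. Ccnb1 reached the level of the deposited table in PX-478 columns alone, so being in the table favoured that direction. The gene was below the count filter and was not tested, and its annotated pseudogene Ccnb1-ps makes the count less certain.

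The other cyclins overlapped between the groups. Ccnb2, cyclin B2, stood at 2.28, 0.694, 0.925 and 1.88 CPM with saline and 3.55, 2.87 and 0.718 CPM after PX-478. The library of PX-478 replicate 3 was as low as the lower saline libraries (log2 fold change 0.71, SE 0.64), and the value was 0.31 without PX-478 replicate 1 and 1.14 without PX-478 replicate 3. The annotated pseudogene Ccnb2-ps makes the count of Ccnb2 less certain. Ccna2, cyclin A2, which acts in S phase and early mitosis, had 1.17, 1.21, 0.132 and 1.57 CPM with saline and 1.25, 1.66 and 1.83 CPM after PX-478. The saline value of replicate 3 rested on 2 reads, and the log2 fold change of 0.63 was 0.26 without that library (0.92 without saline replicate 4). Exosc9 on the opposite strand shares 10.4% of the exon bases of Ccna2.

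The Aurora and Polo-like kinases all overlapped between the groups. Plk1, which acts from mitotic entry to cytokinesis, had 1.95, 1.21, 0.132 and 3.01 CPM with saline and 2.65, 2.12 and 2.41 CPM after PX-478. The saline range enclosed all PX-478 values, and the log2 fold change of 0.59 became 0.21 without saline replicate 3 and 1.12 without saline replicate 4. Aurkb, the kinase of the chromosomal passenger complex, stood at 0.977, 0.867, 0.661 and 0.501 CPM with saline and 2.23, 0.908 and 0.783 CPM after PX-478. Only PX-478 replicate 1 exceeded the saline range, and without it the log2 fold change went from 0.79 to 0.17. Aurka, which matures the centrosome, had 11 to 46 reads per library and a log2 fold change of -0.10 (SE 0.52).

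The 4 tested spindle checkpoint genes all had higher means after PX-478, on few reads. BUB1, BUBR1 (from Bub1b), MAD2 (from Mad2l1) and TTK form the checkpoint, and CDC20 is the activator of the anaphase promoting complex that it holds back. Bub1b had 1.30, 1.39, 0 and 0.626 CPM with saline and 1.602, 3.18 and 1.83 CPM after PX-478. The groups did not overlap, and the log2 fold change was 1.41 (SE 0.86, edgeR adjusted p = 0.780). Without saline replicate 3, which had no Bub1b read, it was 0.99. Cdc20 stood at 0.521, 0.520, 2.05 and 0.814 CPM with saline and 2.44, 1.51 and 2.61 CPM after PX-478. Here saline replicate 3 was the highest saline library, and without it the log2 fold change was 1.80 in place of 1.15. Mad2l1 had 2.87, 3.90, 1.12 and 2.00 CPM with saline and 2.79, 6.51 and 2.28 CPM after PX-478. Only PX-478 replicate 2 lay above the saline range, and the log2 fold change of 0.64 was 0.042 without it. Bub1 had 0.195, 0.607, 0.793 and 0.626 CPM with saline and 1.95, 1.06 and 0.326 CPM after PX-478, and without PX-478 replicate 1 its log2 fold change went from 0.99 to 0.31. Ttk was not tested, with 0, 0, 6 and 0 reads in saline and 13, 20 and 0 in PX-478. It reached the level of the deposited table in PX-478 columns alone, so being in the table favoured that direction.

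Kinetochore and passenger genes split between abundant members with little difference and scarce members with a wide spread. Per kilobase of exon (merged exons of GENCODE vM21), Cenpa had the highest level of all 39 members in both groups, at 5.42 CPM per kilobase in saline and 5.03 in PX-478. It encodes the histone variant that marks centromeres, with a log2 fold change of -0.11 and a 95% interval of -0.83 to 0.61. Incenp, the scaffold of the passenger complex, stood at 3.78, 4.42, 5.82 and 6.14 CPM with saline and 6.55, 6.88 and 7.05 CPM after PX-478. The groups did not overlap but lay close, with a log2 fold change of 0.44 (SE 0.29, edgeR adjusted p = 0.796). Birc5 encodes survivin, another subunit of that complex. Its levels were 2.02, 2.34, 0.463 and 4.45 CPM with saline and 5.29, 6.58 and 3.26 CPM after PX-478. PX-478 replicates 1 and 2 exceeded all saline libraries and replicate 3 did not (log2 fold change 1.12, SE 0.56, 95% interval -0.10 to 2.33, edgeR adjusted p = 0.736).

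Of the outer kinetochore genes, Cenpe, a microtubule motor, had 10, 13, 0 and 2 reads in saline and 27, 30 and 5 in PX-478 (log2 fold change 1.67, SE 1.06). Cenpf, a protein of the outer kinetochore, had 0 to 12 reads in saline and 3 to 16 in PX-478 (log2 fold change 0.98, SE 1.11), with 0.46 when PX-478 replicate 2 was left out. The NDC80 complex binds microtubules end on, and its subunits Ndc80 and Nuf2 had opposite orders. Ndc80 stood at 1.82, 1.39, 1.85 and 0.877 CPM with saline and 0.766, 1.36 and 0.392 CPM after PX-478 (log2 fold change -0.82, SE 0.69), with -1.35 when PX-478 replicate 2 and -0.48 when PX-478 replicate 3 was left out. Nuf2 was not tested, with 4, 3, 0 and 3 reads in saline and 9, 4 and 30 in PX-478. It too reached the level of the deposited table in PX-478 columns alone, which favoured higher values there.

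None of the 5 tested spindle genes separated the groups. Stmn1, stathmin, which destabilises microtubules, had 2.34, 1.73, 0.793 and 1.63 CPM with saline and 1.53, 3.93 and 2.22 CPM after PX-478. Its highest value was that of PX-478 replicate 2, and the log2 fold change of 0.65 was 0.21 without it. Tpx2, which activates Aurora A on the spindle, had 3, 18, 0 and 4 reads in saline and 3, 35 and 15 in PX-478. Most of these reads came from 1 saline and 1 PX-478 library, and the log2 fold change of 1.39 (SE 1.15) was 0.28 without PX-478 replicate 2. Kif11, the motor that pushes spindle poles apart, stood at 2.60, 0.781, 0.264 and 1.25 CPM with saline and 1.46, 1.97 and 0.914 CPM after PX-478 (log2 fold change 0.23, SE 0.75). Kif2c, a microtubule depolymerase, had 1, 1, 14 and 12 reads in saline and 12, 14 and 4 in PX-478 (log2 fold change 0.61, SE 1.02), with 0.23 when PX-478 replicate 2 and 1.17 when saline replicate 3 was left out. Nusap1, which bundles spindle microtubules, had 0 to 15 reads in saline and 4 to 18 in PX-478 (log2 fold change 0.33, SE 1.12).

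Cytokinesis genes had 4 of 6 tested members above 0 and 0 with an unadjusted p under 0.05. Prc1, which bundles the microtubules of the central spindle, had 14, 2, 0 and 16 reads in saline and 27, 12 and 33 in PX-478. The log2 fold change of 1.62 had an SE of 0.95 and a 95% interval of -0.43 to 3.68, and 21.8% of its exon bases are shared with Rccd1 on the opposite strand, which had a log2 fold change of 0.07. Racgap1, a subunit of centralspindlin, stood at 0.586, 1.30, 0.264 and 0.752 CPM with saline and 1.11, 1.97 and 1.17 CPM after PX-478 (log2 fold change 0.97, SE 0.73). Anln, anillin of the contractile ring, had 1.04, 0.781, 0.463 and 0.877 CPM with saline and 0.906, 1.89 and 1.37 CPM after PX-478. PX-478 replicates 2 and 3 lay above the saline range and replicate 1 within it (log2 fold change 0.80, SE 0.67, or 0.52 without PX-478 replicate 2). Ect2, the exchange factor that activates RhoA at the furrow, had 2, 10, 3 and 14 reads in saline and 9, 18 and 7 in PX-478 (log2 fold change 0.65, SE 0.92). Without PX-478 replicate 2 the value of Ect2 was 0.069 and without saline replicate 2 it was 0.99.

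The motors Kif23 and Kif20a act in centralspindlin and in carrying passenger proteins. Kif23 had 17 to 56 reads in saline and 24 to 33 in PX-478, and Kif20a 36 to 86 and 34 to 66. The log2 fold change was -0.26 for Kif23 (SE 0.49) and -0.06 for Kif20a (SE 0.40). Kif20a shares 31.8% of its exon bases with Cdc23 on the opposite strand. Whether the counting used strand is not stated, so how reads in the shared bases of such pairs were assigned is not known. Cep55, which acts in the final cut between daughter cells, was not tested, with 2, 3, 0 and 1 reads in saline and 0, 10 and 6 in PX-478.

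Among centrosome genes, Cep152 had the largest fitted log2 fold change of the 35 tested members. Cep152 encodes the ring protein of the parent centriole that brings PLK4 to the site of the new one. The gene lies on chromosome 2 from 125549864 to 125625174 in GRCm38. Its level was 4.30, 8.85, 4.098 and 9.46 CPM in saline replicates 1 to 4 and 20.6, 22.7 and 23.4 CPM in PX-478 replicates 1 to 3. The lowest PX-478 library lay above the highest saline library, on 296 to 358 reads against 62 to 151. Within saline, replicates 2 and 4 were higher than replicates 1 and 3. The mean was 6.68 ± 2.87 CPM (SD, n = 4) with saline and 22.2 ± 1.43 CPM (SD, n = 3) in PX-478, 3.33-fold higher. This gave a log2 fold change of 1.74 with a 95% interval of 1.08 to 2.40 and an SE of 0.31 (edgeR adjusted p = 0.136), and its p ranked 8 of 13693. It was between 1.56 and 1.96 when any 1 library was left out. Over all alternatives the adjusted p ran from 0.000419 with DESeq2 to 0.575. No annotated exon of another gene overlaps those of Cep152. Its tested neighbours within 50000 bases were Fbn1 and Eid1, whose log2 fold changes were 0.01 and 0.30.

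The members Cep63, Cep192 and Plk4, whose products act with CEP152, each overlapped between the groups. CEP63 forms a ring with CEP152, and Cep63 stood at 15.2, 16.1, 16.9 and 18.7 CPM with saline and 26.3, 16.1 and 18.7 CPM after PX-478. Only PX-478 replicate 1 was above the saline range, and without it the log2 fold change went from 0.28 to 0.056. Per kilobase of exon, Cep152 was at 1.16 CPM with saline and 3.85 CPM after PX-478, and Cep63 at 3.38 and 4.11 CPM. Cep192, the other recruiter of PLK4, had 46 to 114 reads in saline and 52 to 113 in PX-478 (log2 fold change 0.10, SE 0.42). Plk4 itself had 29, 6, 0 and 22 reads in saline and 10, 2 and 11 in PX-478. Its saline libraries ran from none to the highest value of all 7, and the log2 fold change of -0.85 had a 95% interval of -3.22 to 1.52 and was -0.42 without PX-478 replicate 2.

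Cep135, which encodes a protein of the centriole cartwheel and wall, had the next smallest p of the 5 centrosome members. It lies on chromosome 5 from 76588653 to 76646466 and stood at 2.74, 2.34, 1.06 and 3.01 CPM with saline and 4.11, 4.31 and 4.76 CPM after PX-478. The PX-478 libraries were close together and above all saline libraries. Its fitted log2 fold change was 0.94 with a 95% interval of 0.04 to 1.84 and an SE of 0.41 (edgeR adjusted p = 0.695).

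Of the general proliferation genes, Mki67 and Top2a were higher in every PX-478 library than in any saline library, and Foxm1 was not. Mki67 encodes Ki-67, the surface protein of mitotic chromosomes, and lies on chromosome 7 from 135689784 to 135716450. It stood at 4.49, 5.29, 5.42 and 5.07 CPM with saline and 6.97, 11.2 and 9.92 CPM after PX-478. The saline libraries were close together, while PX-478 replicate 1 was nearer to them than replicates 2 and 3. Fitted, it had a log2 fold change of 0.88 with a 95% interval of 0.29 to 1.48 and an SE of 0.27 (edgeR adjusted p = 0.531). Top2a, topoisomerase II alpha, which untangles chromosomes before they part, lies on chromosome 11 from 98992947 to 99024199. Its levels were 0.651, 2.26, 0.463 and 2.82 CPM with saline and 3.48, 3.78 and 3.92 CPM after PX-478. Saline replicates 1 and 3 were lower than 2 and 4, as for Cep152, and the log2 fold change was 1.27 (SE 0.58, edgeR adjusted p = 0.715). Foxm1, the transcription factor of late cell cycle genes, had 1.95, 2.34, 2.25 and 2.00 CPM with saline and 1.25, 4.24 and 0.653 CPM after PX-478. The PX-478 values lay on both sides of the narrow saline range. The log2 fold change of -0.07 (SE 0.60) became -1.16 without PX-478 replicate 2 and 0.36 without PX-478 replicate 3.

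**Figure D2:**
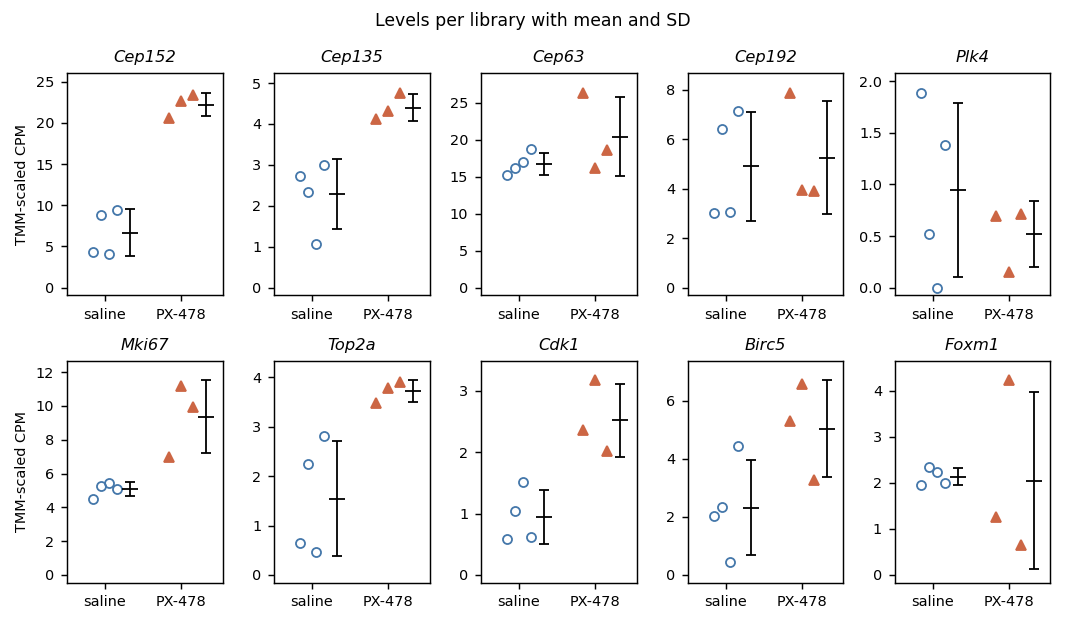
TMM-scaled CPM of 10 members in each library on linear axes, with open circles for saline, triangles for PX-478, and a bar with whiskers for the mean and SD of each group. For Cep152, Cep135, Mki67, Top2a and Cdk1 the groups do not overlap, while Cep63, Cep192, Plk4, Birc5 and Foxm1 overlap.

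**Figure D3:**
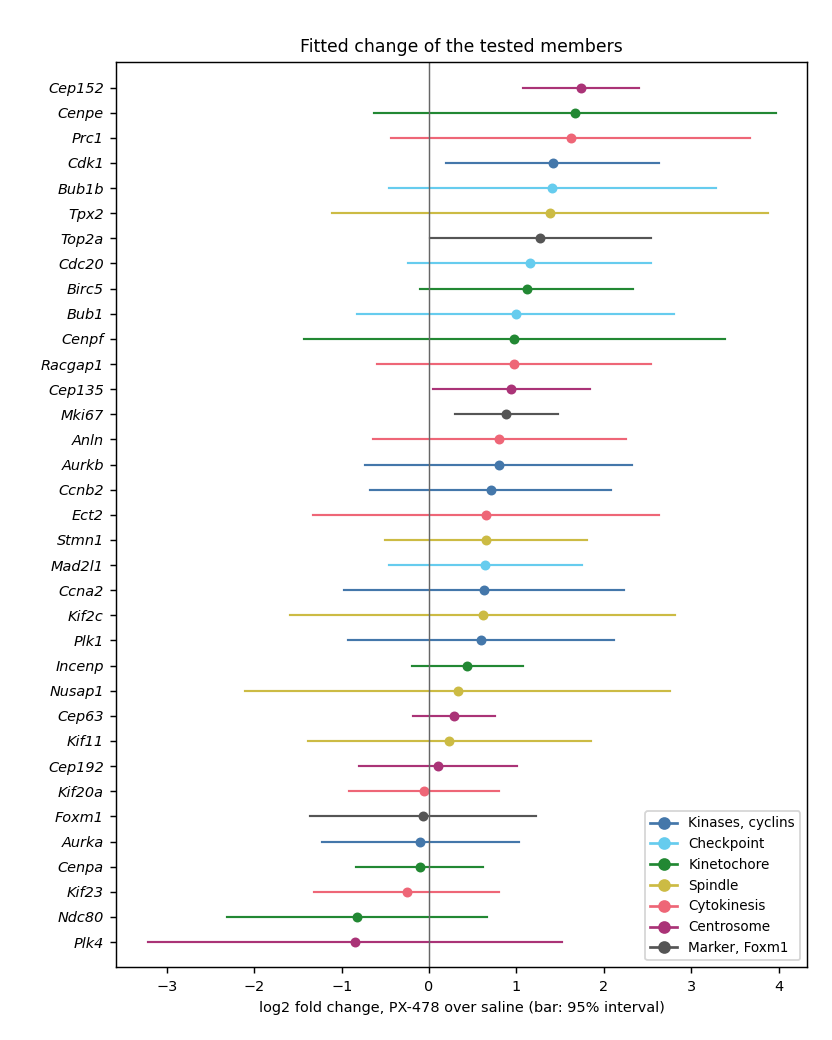
Fitted log2 ratio, PX-478 to saline, for the 35 tested members, ordered by size and coloured by role, with bars for the 95% interval of edgeR's quasi-likelihood test. The bars of 30 of the 35 members include 0, and Cep152 has the largest value, 1.74.

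By library, summed reads of the 39 members were 992 to 1497 in saline and 1827 to 1983 in PX-478. The summed level was 75.9 to 93.8 CPM with saline and 119 to 141 CPM after PX-478. Without Cep63, Cenpa and Cep152, which hold much of that sum, it was 40.8 to 59.4 CPM and 70.0 to 95.5 CPM. In both groups the mean level was under 2 CPM for 19 of the 39 members and under 5 CPM for 32. A total of 27 members had 10 reads or fewer in at least 1 library. Over all 39, tested or not, the mean was higher in PX-478 for 32 and lower for 7. Of the 32, Ccnb1, Ttk, Nuf2 and Cep55 reached the level of the deposited table (0.5 CPM in 2 columns) in PX-478 columns alone, so being in the table favoured that direction.

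Other genes of the same machinery were counted in the same way. Of 215 genes in 8 lists of mitotic, centrosome and cell cycle control genes, 186 were tested and 127, or 68.3%, had a log2 fold change above 0. An unadjusted p under 0.05 was reached by 11 higher, or 5.91%, and 1 lower, beside 3.48% of all genes in each direction, and 0 passed at an adjusted p in edgeR. With DESeq2 only the genes with the 3 smallest edgeR p-values of each list were looked up, so the 186 were not counted. Of those looked up, Psrc1, Cdkn1a and Nek6, all described below, passed with a DESeq2 adjusted p of 0.000419, 0.00207 and 0.0444. DESeq2 called 0.336% of all genes higher and 0.270% lower. The groups did not overlap for 19 higher, or 10.2%, and 4 lower, beside 4.30% and 4.29% of all genes. The share of members and of other genes was not tested against each other, and these lists too were chosen with earlier results known.

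Centrosome genes formed the longest list, with 37 of 49 tested above 0 and a median log2 fold change of 0.26. In this list 3 of the 49 had an unadjusted p under 0.05, all higher, where 3.48% of all genes tested were higher at that level. Cep250, which links the paired centrioles, stood at 33.2 ± 6.15 CPM (SD, n = 4) with saline and 54.7 ± 10.3 CPM (SD, n = 3) in PX-478. Cenpj, which encodes the centriole elongation factor CPAP, had 6.72 ± 0.449 CPM and 11.7 ± 1.62 CPM. Cep44 had 11.4 ± 1.31 CPM and 17.7 ± 3.18 CPM. The groups did not overlap in any of these 3, which were picked by their small p. All had an adjusted p of 0.494 or 0.577 in edgeR.

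In the kinetochore, cohesion and condensin list 23 of 29 were above 0. Only 1 was higher at an unadjusted p under 0.05, beside 3.48% of all genes. This was Dsn1, a subunit of the MIS12 complex, at 0.950 ± 0.453 CPM with saline and 3.31 ± 0.874 CPM after PX-478. The log2 fold change was 0.46 for Ncapd3 (SE 0.22) and 0.38 for Smc4 (SE 0.19), both condensin genes. In the spindle list 20 of 26 were above 0. Psrc1, a spindle protein and p53 target, led it at 3.62 (SE 0.68), or 2.87 without PX-478 replicate 2. Its level was 0.173 to 0.564 CPM with saline and 1.44 to 7.41 CPM after PX-478, with as few as 2 reads in a library. The size of that ratio therefore rests on very few saline reads. Numa1 at 0.35 and Haus4 at 0.53 followed, and were 0.20 and 0.22 without PX-478 replicate 1. The checkpoint and anaphase promoting complex list had 15 of 21 above 0. There the subunit gene Anapc5 was at 0.47 (SE 0.20), the inhibitor Fbxo5 at 1.12 (SE 0.52) and the subunit gene Anapc13 at -0.39 (SE 0.19).

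Among kinases and regulators of mitotic entry 11 of 15 were above 0. Wee1 and Pkmyt1, the kinases that hold CDK1 inactive, had log2 fold changes above 0, at 1.40 for Wee1 (SE 0.55) and 1.69 for Pkmyt1 (SE 0.64), and Pkmyt1 was at 0.76 without PX-478 replicate 2. Nek6, a kinase of spindle assembly, was at -0.79 (SE 0.19), the only unadjusted p under 0.05 with lower values in the 8 lists. Cytokinesis genes outside the members mostly had values under 0, 11 of 14, and 0 at an unadjusted p under 0.05. Rock1, Rhoa and Chmp4b had log2 fold changes of -0.40, -0.37 and -0.29. Rock1 was at -0.26 without saline replicate 2 and Chmp4b at -0.14 without PX-478 replicate 1.

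The list of transcriptional regulators of mitotic genes had 9 of 19 above 0 and a median of -0.04. Its smallest p-values belonged to Rbl2, which encodes the pocket protein p130, at 0.83 (SE 0.28), E2f1 at 0.97 (SE 0.47) and Tfdp2 at 0.40 (SE 0.23). Rbl2 was at 0.53 without PX-478 replicate 1, and without PX-478 replicate 2 E2f1 was at 0.44 and Tfdp2 at 0.24. Of the G1 cyclins, kinases and inhibitors 9 of 13 were above 0. Cdkn1a, which encodes p21, had a log2 fold change of 1.51 (SE 0.28, edgeR adjusted p = 0.139), Ccnd1 one of 1.02 (SE 0.36), or 0.34 without PX-478 replicate 2, and Cdk2 one of 0.40 (SE 0.23).

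**Figure D4:**
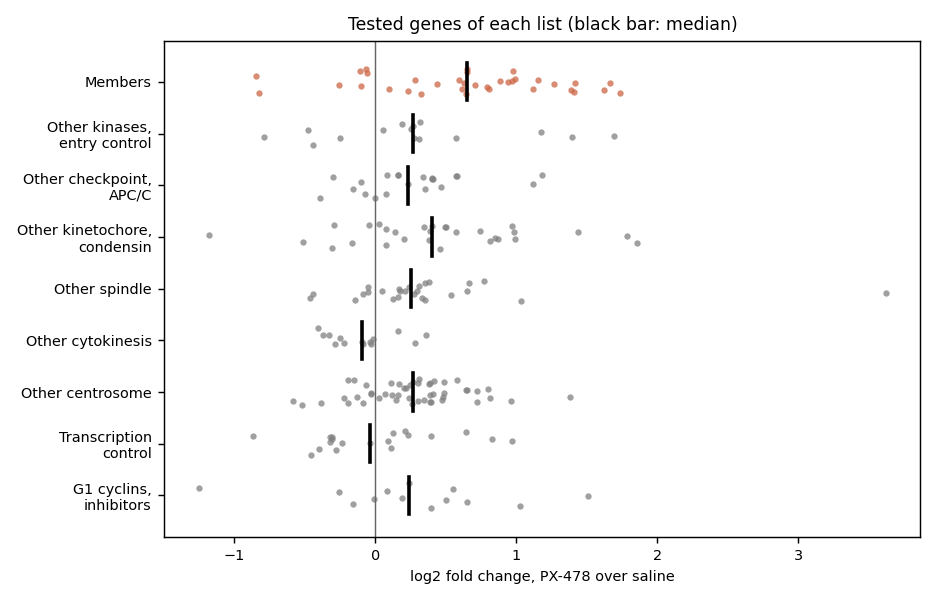
Log2 ratio, PX-478 to saline, for each tested gene of the members and of 8 lists of other mitotic, centrosome and cell cycle control genes, with a black bar for the median. The bar lies at 0.65 for the members, between 0.23 and 0.40 for 6 lists, at -0.04 for transcription control and at -0.09 for other cytokinesis genes.

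Markers of other liver cells were compared beside these values, since any dividing cell could hold the transcripts. Of 8 endothelial markers 6 had a log2 fold change above 0, with a summed level of 109.9 to 162 CPM with saline and 157 to 187 CPM after PX-478, led by Kdr at 0.98 (SE 0.36), while Pecam1 was at -0.47. Of 8 macrophage markers 0 were above 0 (summed 243 to 518 CPM and 247 to 361 CPM), with Cd68 at -0.91 (SE 0.20) and Vsig4 at -0.94 (SE 0.27). Of 7 tested T and NK cell markers 2 were above 0 (5.46 to 18.1 CPM and 8.08 to 10.5 CPM), and of 4 tested B cell markers 1 (14.9 to 21.7 CPM and 5.94 to 21.0 CPM), while Ms4a1 had no row. Erythroid markers had 2 of 5 above 0 (82.9 to 139 CPM and 93.3 to 110.8 CPM), with Klf1 at 0.93 (SE 0.39). Neutrophil markers had 0 of 2 above 0 (4.94 to 6.77 CPM and 2.30 to 7.41 CPM), with no row for Ly6g, Mpo, Camp or Ltf. Stellate cell markers had 4 of 7 above 0 (174 to 217 CPM and 137 to 318 CPM) and cholangiocyte markers 2 of 5 (74.9 to 109.7 CPM and 78.6 to 132 CPM), with no row for Cftr. Of 8 hepatocyte markers 1 was above 0 (35764 to 51589 CPM and 32047 to 38985 CPM), with a median of -0.31, and Ttr, at -0.57 (SE 0.22), was lower in every PX-478 library than in any saline library. The part of these cells in the mitotic transcripts was not tested.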

How the data were processed

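Liver RNA of 7 ApoE-/- mice (4 saline, 3 PX-478) was extracted with Qiazol and made into Illumina libraries, per the labels' protocols. The titles give group and number and nothing of litter or cage, so p-values reflect only how far these samples spread. The authors deposited whole-number counts of reads per gene. The submitters' processing notes list featureCounts, edgeR and mm10, none with a version. Which aligner was run is not given in the sources here. All 14889 genes had over 0.5 CPM in at least 2 of the 14 count columns. Each sample has 2 columns, which differed by less than the sampling noise (chi-square per gene 0.291 to 0.765, against 49.2 to 145.7 between libraries) and were averaged, rounded and counted as 1 sample. The table's 7 averaged columns were left aside.

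Genes were filtered with filterByExpr, scaled by TMM and compared with edgeR 4.0.16's quasi-likelihood F test with robust estimates, without covariates, with Benjamini-Hochberg adjustment over 13693 genes and a threshold of 0.05. Standard errors were derived from the fold change and F. Alternatives used other scalings, filters and columns, DESeq2 1.42.0, limma-voom (limma 3.58.1), a replicate block, and leaving out libraries. The test was run on simulated counts first. In 1 library 3 reads equal 0.188 to 0.260 CPM. RefSeq GRCm38.p6, which shares its coordinates with mm10, gave positions, promoters and older symbols, used only for listed names that are no current symbol.

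Members and lists were chosen with earlier results of these data known. Every member is named. Values in every sample are given for the 4 smallest p-values in each role and for Mki67, Top2a, Cdk1, Plk1, Foxm1, Plk4 and Cep152, and each other list is described by its 3 smallest p-values.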

Additional observations from a re-analysis of the deposited data

Results flagged for a closer look

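Among the 4 saline libraries, 2 of 39 members had 1 library set apart from the rest by Dixon's ratio, which chance alone exceeds in about 1 of 20 groups. Ttk stood at 0.397 CPM in saline replicate 3 and had no read in the other 3. Tpx2 stood at 1.56 CPM in saline replicate 2, against 0 to 0.251 CPM in the other 3.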

How the results depend on the processing

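The 35 tested members gave 718 values under the alternatives, of which 689 kept their direction and 29, in 13 members, did not. No member passed at an adjusted p under 0.05 under any alternative but DESeq2, which called 1, Cep152. Genes called higher over the whole table numbered 0 as reported, 4 with library size alone, 46 with DESeq2 and 9 without both saline 3 and PX-478 2. Genes called lower numbered 1 as reported, 37 with DESeq2, 0 with limma-voom and 6 with both libraries left out. When 1 library was left out, 0 to 4 genes were higher, 1 to 3 lower and 0 members passed. In those fits 2 to 5 members were higher at an unadjusted p under 0.05, beside 1.99% to 4.25% of all genes. The median log2 fold change was then 0.52 to 0.91. Between 8 and 14 members did not overlap, and the share of all genes was not counted there. With limma-voom 8 members were higher at an unadjusted p under 0.05, beside 4.07% of all genes. The cause of these shifts was not tested.

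Same-numbered samples did not deviate together (r from -0.0742 to -0.00171), and differently numbered ones gave r from -0.0785 to 0.173. So few correlations cannot exclude a pairing of the mice, and the titles do not give one. With the replicate block 1 gene was higher and 2 were lower, and the median log2 fold change of the members was 0.89.

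The directions that turned were those of 13 members, Tpx2 and Plk4 with larger values among them. With library size alone Aurka was at 0.076, Cenpa at 0.050, Kif20a at 0.054 and Foxm1 at 0.22, with the first column Kif20a at 0.019, and with limma-voom Plk4 at 0.019. Without both saline 3 and PX-478 2 the log2 fold changes were -0.20 for Mad2l1, 0.34 for Cenpa, -0.38 for Kif11, -0.13 for Tpx2, -0.019 for Stmn1, 0.11 for Kif20a and -0.20 for Ect2. Leaving out 1 library gave -0.34 to 0.15 for Aurka, -0.36 to 0.20 for Cenpa, -0.11 to 0.91 for Kif11, -0.75 to 0.69 for Nusap1, -0.25 to 0.18 for Kif20a, -0.47 to 0.053 for Kif23, -0.32 to 0.34 for Cep192 and -1.16 to 0.36 for Foxm1. Read counts were low for many members: 3 reads are 0.188 to 0.260 CPM, and 19 of the 39 had means under 2 CPM in both groups. At least 1 library held 10 reads or fewer for 27 of the 39.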

Other observations

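Birc5 lies on chromosome 11 in a stretch with Afmid and Tk1, whose annotated ends are 9329 and 23150 bases away. Their log2 fold changes were 1.12 (SE 0.56) for Birc5, 1.40 (SE 0.26) for Afmid, an arylformamidase gene, and 2.40 (SE 0.36) for Tk1, thymidine kinase. The other tested genes within 50000 bases, Tha1, Syngr2 and Gm11725, had log2 fold changes of 0.27, 0.19 and -1.14. On chromosome 10, Rhobtb1, 43355 bases from Cdk1, had a log2 fold change of 1.16 (SE 0.44) beside 1.41 for Cdk1.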
